A study of Mus musculus with 16 samples.

Results

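Splenic granulocytic myeloid-derived suppressor cells (G-MDSCs) were compared with monocytic myeloid-derived suppressor cells (M-MDSCs) from the same tumor-bearing wild-type (WT) mice. All WT libraries of the series were used, 8 of 16 in all, with 4 libraries per subset from 4 mice, and each mouse gave 1 library of each subset. Each library listed 24421 genes, of which 9739 had counts enough for the test. The mice were C57BL/6 in the labels (the WT mice were bought as C57BL/6J) and carried B16.F10 melanoma, a transplantable mouse melanoma line injected subcutaneously in the back. The sorted populations were CD11b high Ly6C- Ly6G+ cells (G-MDSC) and CD11b high Ly6C+ Ly6G- cells (M-MDSC), and each RNA sample came from 1 mouse. The study's methods describe young adult mice matched for sex and age, in general analysed in the third week after tumor induction. Neither tumor-free mice nor other organs are analysed here, so no value below describes the effect of the tumor. The remaining 8 libraries come from 4 *Nlrp3*-/- mice on the C57BL/6 background, in which an EGFP cassette disrupts *Nlrp3*, with the same tumor and the same sort. They are used only where stated.

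MDSCs are immature or pathologically activated myeloid cells that accumulate in cancer and restrain T cells. The granulocytic subset shares its lineage with neutrophils, which build primary, then secondary and tertiary granules in that order as they mature and which depend on G-CSF and the C/EBP factors. The monocytic subset shares its lineage with Ly6C high inflammatory monocytes, which depend on M-CSF and IRF8 and leave the bone marrow through CCR2. Inflammatory monocytes and neutrophils are both sources of IL-1β.

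The libraries were QuantSeq 3′ libraries, which count reads near the 3′ end of polyadenylated transcripts. They held 2295967 to 5933395 counts in M-MDSC and 3250021 to 5435355 in G-MDSC, and 3 counts, the floor used below, were worth 0.411 to 0.9998 CPM (counts scaled to a common library total, as below) in an M-MDSC library and 0.703 to 1.14 CPM in a G-MDSC library. The 20 genes with most counts took 21.2% to 29.98% of an M-MDSC library and 33.2% to 43.2% of a G-MDSC library. The largest single share in both subsets was *Rn45s*, the ribosomal RNA precursor, with 13.4% to 23.2% in M-MDSC and 14.1% to 25.9% in G-MDSC. The alarmins *S100a8* and *S100a9* together took 0.124% to 0.760% in M-MDSC and 7.32% to 9.17% in G-MDSC. Levels below are CPM scaled by the trimmed mean of M values (TMM), which sets the bulk of genes equal between the subsets. Fold changes are G-MDSC over M-MDSC, on the log2 scale, with their standard error (SE). M-MDSC replicate 2 was the highest library of its subset for several granule genes. Over the genes of secondary and tertiary granules it summed to 5515 CPM, against 3240 to 3733 CPM in the other 3 M-MDSC libraries. The outlier test given near the end did not flag this sum. Over primary granule genes, replicate 3 was the highest (4129 CPM, against 3865 CPM in replicate 2). The results that rest on replicate 2 are given with and without it.

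The sorted antigens were checked first. Gene positions are given on GRCm38.p6, the assembly behind the mm10 build to which the reads were aligned. *Itgam*, which encodes CD11b (chr7:128062640-128118491), was present at 217, 162, 145 and 224 CPM in M-MDSC replicates 1 to 4 and at 564, 563, 461 and 536 CPM in G-MDSC replicates 1 to 4. All G-MDSC libraries were above all M-MDSC libraries (log2 fold change 1.51 ± 0.18, FDR 2.22e-05). *Ly6c2* (chr15:75108158-75111970), one of the genes for the Ly6C antigen, stood at 1200.2, 734, 995 and 901 CPM in M-MDSC and 195, 267, 175 and 231 CPM in G-MDSC. The ranges did not overlap and *Ly6c2* was lower in G-MDSC (log2 fold change -2.14 ± 0.20, FDR 3.61e-06). *Ly6c1*, a near-identical neighbor whose reads may be split with *Ly6c2*, was low in every library and did not pass the test (log2 fold change -0.88 ± 0.56, FDR 0.201). *Ly6g* was not analysed here, so the antigen that defines G-MDSC was not checked at the RNA level.

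Of 9739 genes tested, 5193 were differentially expressed genes (DEGs) at a false discovery rate (FDR) under 0.05 and a fold change above 1.5, which is 53.3% of the genes tested. 2557 genes (26.3%) were higher in G-MDSC and 2636 (27.1%) were lower. At 51.8% of the tested genes the 4 G-MDSC libraries did not overlap the 4 M-MDSC libraries. 670 DEGs were more than 4-fold higher in G-MDSC and 697 more than 4-fold lower, and 183 and 162 passed 16-fold. The even split between directions belongs to the scaling. Over all tested genes the median on the log2 scale was -0.05 with TMM, -0.27 with upper-quartile scaling and -0.79 with library size alone, which left 2051 genes called higher and 3324 lower with upper-quartile scaling and 1166 higher and 5061 lower with library size alone. The direction of changes smaller than that shift therefore depends on the scaling, and the changes described below are relative to the bulk of genes. Counts of list members called below are to be read beside 26.3% higher and 27.1% lower of all tested genes. Those with library size alone are to be read beside 1166 higher and 5061 lower of 9739. The lists were chosen with earlier results of these data known, so these counts describe their members and are no independent test. Besides *Rn45s*, the 10 genes with most counts in G-MDSC were *S100a8*, *S100a9*, *Actb*, *Il1b*, *Malat1*, *Tmsb4x*, *Ngp*, *Ptprc* and *Rgs2*, and in M-MDSC *Actb*, *Malat1*, *Tmsb4x*, *B2m*, *Ifitm3*, *S100a4*, *Nfkbia*, *Psap* and *Rps14*. *Rn45s* itself did not pass (log2 fold change 0.88 ± 0.39, FDR 0.0696) but passed with the mouse as a block (FDR 0.00628). In sorted bulk samples, fewer cells of a kind and less RNA per cell cannot be told apart.

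**Figure D1:**
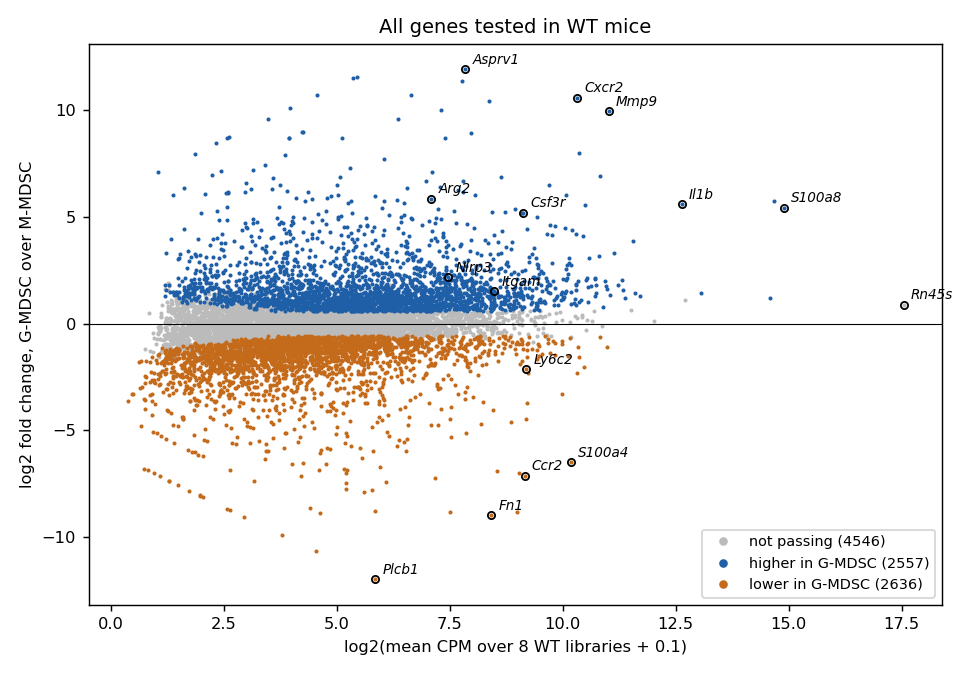
Log2 fold change of G-MDSC over M-MDSC (vertical axis) against the log2 mean CPM over the 8 WT libraries plus 0.1 (horizontal axis), 1 point per tested gene, blue for genes called higher and orange for genes called lower in G-MDSC. *S100a8* and *Il1b* combine a high level with a large change, and *Rn45s* lies at the right edge.

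The 12 genes with the largest rise in G-MDSC, among DEGs with a mean of at least 20 CPM and no overlap between subsets, were *Asprv1*, *Dhrs9*, *Ifit1bl2*, *Stfa2l1*, *Stfa2*, *Gm5483*, *Cxcr2*, *H2-Q10*, *Sycp2*, *Mmp9*, *Nlrp12* and *Il1f9*. *Cxcr2* (chr1:74153989-74161246), the receptor through which neutrophils follow CXCL1 and CXCL2, was read at 0.902, 3.43, 0.521 and 1.33 CPM in M-MDSC and at 2899, 1809, 2329 and 3116 CPM in G-MDSC (log2 fold change 10.56 ± 0.49, FDR 1.79e-08). *Mmp9* (chr2:164940780-164955850), the gelatinase of tertiary granules, was read at 3.43, 2.19, 2.08 and 11.3 CPM in M-MDSC and at 6296, 3143, 2999.7 and 4122 CPM in G-MDSC (log2 fold change 9.93 ± 0.59, FDR 9.25e-08). For both genes the lowest G-MDSC library lay far above the highest M-MDSC library. *Asprv1*, a retroviral-like aspartic protease, had 2 counts in all 4 M-MDSC libraries together and 5891 in G-MDSC, a depth-scaled ratio of 4898 with a 95% counting interval of 1355 to 40453. *Dhrs9*, a retinol and steroid dehydrogenase, had no count in M-MDSC and stood at 106, 98.9, 72.4 and 69.9 CPM in G-MDSC, which was at least 619-fold higher with 3 counts over the 4 M-MDSC libraries as the floor. By the same bound *Ifit1bl2*, a gene of the interferon-induced IFIT family, was at least 584-fold higher and *Stfa2*, a stefin, at least 326-fold higher. *Nlrp12*, a nucleotide-binding sensor of the NLR family, was read at no more than 0.347 CPM in M-MDSC and at 172, 133, 166 and 181 CPM in G-MDSC (log2 fold change 9.58 ± 0.31, FDR 7.82e-09). *Il1f9*, which encodes the cytokine IL-36γ, rose from 0.541, 2.61, 0.173 and 0 CPM to 792, 389, 384 and 426 CPM (log2 fold change 8.90 ± 0.58, FDR 1.80e-07). *H2-Q10*, a non-classical class I gene, was read at no more than 1.08 CPM in M-MDSC and at 772, 458, 683 and 736 CPM in G-MDSC. *Sycp2*, a component of the meiotic synaptonemal complex, stood at no more than 0.868 CPM and at 291, 291, 398 and 287 CPM. Where a subset is close to 0, a single library can set the size of the ratio. Without M-MDSC replicate 2 the log2 fold changes of *Cxcr2* and *Il1f9* were 11.42 and 10.58, and without M-MDSC replicate 4 that of *Mmp9* was 10.59. *H2-Q10* and the stefins belong to families of near-identical genes, and their counts may include reads of a relative.

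The 12 genes with the largest fall in G-MDSC were *Plcb1*, *Stxbp6*, *Fn1*, *Cd300lg*, *Vcan*, *F13a1*, *Ms4a6d*, *Clec10a*, *Msr1*, *Tifab*, *Nupr1* and *Ldlrad3*. *Fn1* (chr1:71585520-71653200), which encodes the matrix protein fibronectin, was read at 639, 502, 764 and 814 CPM in M-MDSC and at 3.91, 0.661, 0.234 and 0.759 CPM in G-MDSC (log2 fold change -8.97 ± 0.48, FDR 4.51e-08). *F13a1*, the A subunit of coagulation factor XIII, was read at 950.4, 882, 978 and 1259 CPM in M-MDSC and at 4.89, 0.661, 1.88 and 1.52 CPM in G-MDSC (log2 fold change -8.81 ± 0.39, FDR 1.74e-08). *Vcan*, the proteoglycan versican, was read at 334, 348, 290.5 and 469 CPM in M-MDSC and at most 0.992 CPM in G-MDSC (log2 fold change -8.83 ± 0.35, FDR 1.37e-08). These 3 products of monocytes were close to absent from every G-MDSC library. *Plcb1*, a phosphoinositide-specific phospholipase C, stood at 119, 105, 131 and 109 CPM in M-MDSC and had no count in G-MDSC, at least 501-fold lower. *Stxbp6*, a syntaxin-binding protein, was at least 189-fold lower by the same floor. *Msr1* and *Clec10a*, a scavenger receptor and a galactose-type lectin of monocytes and macrophages, had 5 counts and 1 count in G-MDSC against 2055 and 857 in M-MDSC. G-MDSC replicate 1 held most of the remaining *Fn1* and *F13a1*, and without it their log2 fold changes were -10.30 and -9.47.

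**Figure D2:**
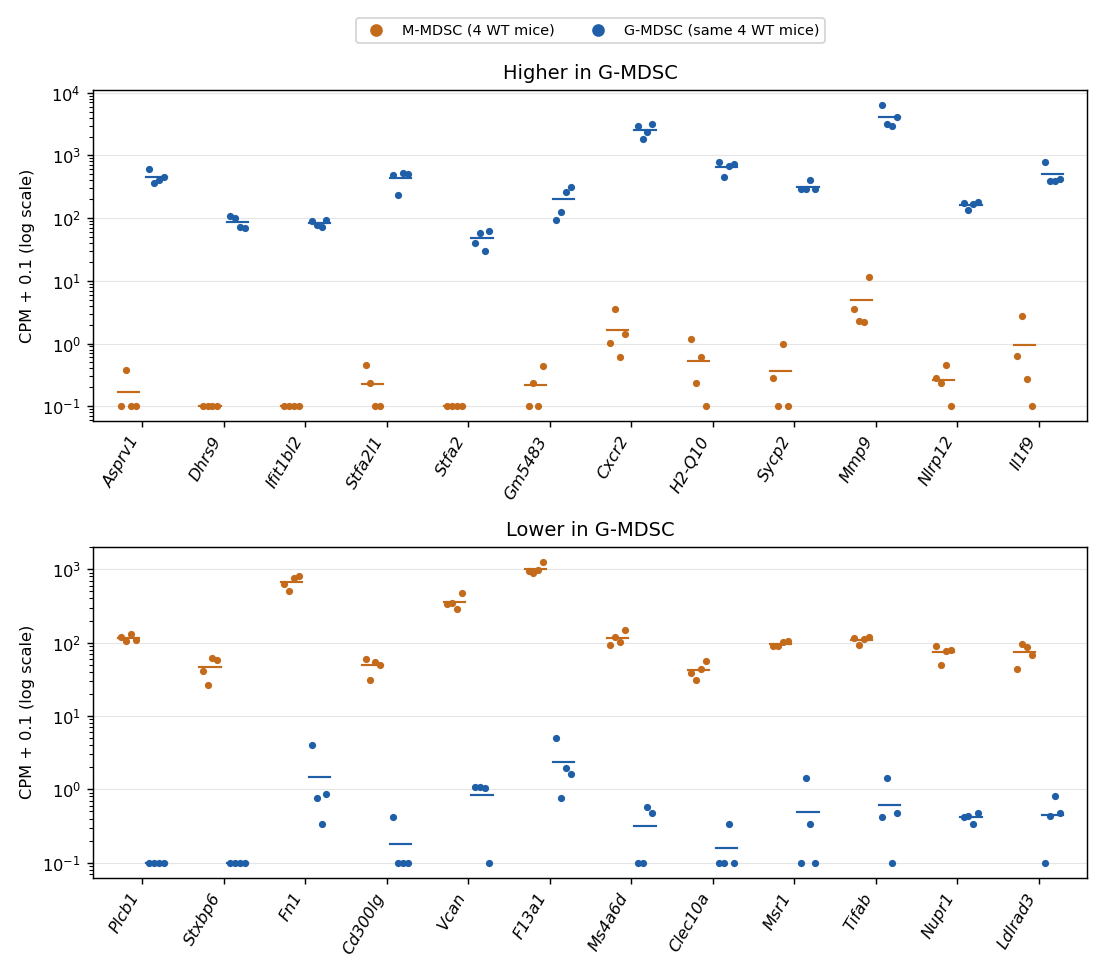
Level of the 12 most raised (upper panel) and the 12 most lowered genes (lower panel) in G-MDSC, as CPM plus 0.1 on a log axis, 1 point per library and a bar at the mean of the 4 libraries of a subset. Points on the lowest line of a panel are libraries with no count, such as all M-MDSC libraries at *Dhrs9* and all G-MDSC libraries at *Plcb1*.

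To show what lies upstream of the genes at both ends, the RefSeq promoter (250 bases before to 50 after the annotated start, GRCm38.p6) is printed for the 3 raised and the 3 lowered genes with the largest change that have one in the table used. Capitals mark matches, on either strand, to 4 short motifs of myeloid factors, namely C/EBP (TTGCNNAA), PU.1 (AGGAAGT), IRF (GAAANNGAA) and the PU.1-IRF composite (GGAANNGAA), where N is any base. The PU.1-IRF and IRF letters can overlap.
Asprv1 (chr6:86627924-86628223, + strand): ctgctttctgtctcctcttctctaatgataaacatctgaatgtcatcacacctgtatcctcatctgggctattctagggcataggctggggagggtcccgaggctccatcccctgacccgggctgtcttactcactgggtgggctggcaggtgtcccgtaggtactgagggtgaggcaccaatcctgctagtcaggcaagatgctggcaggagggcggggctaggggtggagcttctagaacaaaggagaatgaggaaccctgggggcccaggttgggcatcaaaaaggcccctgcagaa
Dhrs9 (chr2:69380212-69380511, + strand): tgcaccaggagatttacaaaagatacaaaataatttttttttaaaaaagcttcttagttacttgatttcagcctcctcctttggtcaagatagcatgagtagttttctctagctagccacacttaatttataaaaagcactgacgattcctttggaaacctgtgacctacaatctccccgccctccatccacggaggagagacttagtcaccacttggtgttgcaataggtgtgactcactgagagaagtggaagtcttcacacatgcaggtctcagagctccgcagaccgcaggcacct
Ifit1bl2 (chr19:34640694-34640993, - strand): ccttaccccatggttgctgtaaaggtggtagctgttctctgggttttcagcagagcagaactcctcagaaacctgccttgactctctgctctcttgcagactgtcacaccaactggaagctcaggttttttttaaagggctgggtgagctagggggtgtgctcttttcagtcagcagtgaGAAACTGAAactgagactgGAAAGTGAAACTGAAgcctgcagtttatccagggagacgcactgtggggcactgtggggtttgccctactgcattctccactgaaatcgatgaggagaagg
Plcb1 (chr2:134785914-134786213, + strand): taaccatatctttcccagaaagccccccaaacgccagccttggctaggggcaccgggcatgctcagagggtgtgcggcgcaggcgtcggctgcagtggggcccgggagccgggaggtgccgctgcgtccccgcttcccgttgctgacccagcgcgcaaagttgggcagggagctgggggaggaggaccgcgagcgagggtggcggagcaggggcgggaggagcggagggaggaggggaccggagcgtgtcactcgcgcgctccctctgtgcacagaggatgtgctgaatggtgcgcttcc
Stxbp6 (chr12:45074434-45074733, - strand): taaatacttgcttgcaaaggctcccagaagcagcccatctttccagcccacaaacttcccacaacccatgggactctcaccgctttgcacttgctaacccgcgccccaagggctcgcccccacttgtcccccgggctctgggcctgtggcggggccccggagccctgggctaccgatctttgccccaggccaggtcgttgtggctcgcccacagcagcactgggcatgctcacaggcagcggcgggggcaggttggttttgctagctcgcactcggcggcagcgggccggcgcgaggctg
Vcan (chr13:89742463-89742762, - strand): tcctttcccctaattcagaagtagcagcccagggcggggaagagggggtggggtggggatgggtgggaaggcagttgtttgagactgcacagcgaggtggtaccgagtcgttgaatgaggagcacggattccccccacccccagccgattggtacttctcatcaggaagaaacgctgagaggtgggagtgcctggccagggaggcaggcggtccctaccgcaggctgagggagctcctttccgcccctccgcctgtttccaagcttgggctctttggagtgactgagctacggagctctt
For *Ifit1bl2* the first of its 2 promoters in the table is shown. Of the 6 windows printed, only that of *Ifit1bl2* held a match, with 3 IRF matches of which the last pair overlap, and the other 5 windows held none of the 4 motifs. Among all 32851 promoters of the table, 10.8% held the C/EBP letters, 9.35% the PU.1 letters, 8.56% the IRF letters and 8.24% the composite. The C/EBP letters were in 16% of the 162 promoters of DEGs more than 16-fold higher in G-MDSC, in 8.33% of the 144 promoters of DEGs more than 16-fold lower, and in 8.57% of those of all tested genes. The PU.1 letters were in 11.7%, 18.1% and 9.99% of the same sets. For the IRF letters these shares were 9.26%, 9.03% and 7.61%, and for the composite 7.41%, 11.1% and 7.64%. A gene can have more than 1 promoter, and the 162 and 144 promoters belonged to 137 and 120 genes. These shares are descriptions of letters in short windows, with no test.

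Granule genes differed by granule class. Of 27 tested genes of secondary and tertiary granules, 24 were higher in G-MDSC and 1 was lower, with a median log2 fold change of 3.06. These counts stand beside 26.3% of all tested genes higher and 27.1% lower. *Ltf* (lactoferrin), *Camp* (the cathelicidin peptide), *Lcn2* (the iron-sequestering lipocalin) and *Ngp* (neutrophilic granule protein) were among those that rose. *Camp* was read at 83.7, 864, 134 and 139 CPM in M-MDSC and at 933, 2066, 2017 and 3097 CPM in G-MDSC (log2 fold change 2.73 ± 0.67, FDR 0.00435), and the highest M-MDSC library was just below the lowest G-MDSC library. *Retnlg* (resistin-like gamma) was read at 21.8, 25.1, 9.20 and 65.99 CPM in M-MDSC and at 3145, 2719, 4531 and 4069 CPM in G-MDSC, with wide separation (log2 fold change 6.92 ± 0.56, FDR 9.25e-07). The single lower member was *Chil3*, a chitinase-like lectin that monocytes and macrophages also make, and its ranges overlapped (log2 fold change -0.91 ± 0.34, FDR 0.0353), and its call was lost when any of 5 of the 8 libraries was left out. Without M-MDSC replicate 2, 23 members were called higher and 0 lower, with a median of 3.82, and the log2 fold change of *Camp* was 4.04, that of *Ngp* 4.93 in place of 3.84, that of *Ltf* 5.70 in place of 4.57 and that of *Lcn2* 5.25 in place of 4.17. Without M-MDSC replicate 4 that of *Retnlg* was 7.54.

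Genes listed for primary granules were divided. Of 14 tested, 5 were higher and 8 lower in G-MDSC (median -1.81), beside 26.3% of all tested genes higher and 27.1% lower. The classical serine proteases and peroxidase were all among the lower genes. *Mpo* (myeloperoxidase) was read at 24.5, 99.6, 28.6 and 22.7 CPM in M-MDSC and at 2.28, 1.98, 0.938 and 0.759 CPM in G-MDSC (log2 fold change -4.88 ± 0.61, FDR 3.27e-05). *Elane* (neutrophil elastase) was read at 11.5, 47.5, 18.2 and 16.3 CPM in M-MDSC and at most 0.992 CPM in G-MDSC (log2 fold change -5.37 ± 0.67, FDR 3.03e-05). *Prtn3* (proteinase 3) followed the same pattern (log2 fold change -4.85 ± 0.63, FDR 4.26e-05), as did *Ctsg* (cathepsin G), which had 1 count in G-MDSC. The highest M-MDSC value of each of these 4 genes was in replicate 2, but the other 3 M-MDSC libraries were also above all G-MDSC libraries. Without replicate 2 the log2 fold change was -4.14 for *Mpo*, -4.80 for *Elane* and -4.36 for *Prtn3*, and without G-MDSC replicate 1 that of *Prtn3* was -5.88. Those that were higher in G-MDSC were *Srgn* (the granule proteoglycan serglycin, log2 fold change 3.17), *Cd63* (a granule membrane tetraspanin, log2 fold change 3.84), *Prss57* (neutrophil serine protease 4, log2 fold change 2.31), *Serpinb1a* (an inhibitor of elastase, log2 fold change 1.18) and *Igsf6*, a member of the immunoglobulin superfamily (log2 fold change 1.03). Without M-MDSC replicate 2 the value of *Cd63* was 4.67, without G-MDSC replicate 1 that of *Prss57* was 1.69, and with library size alone *Serpinb1a* and *Igsf6* were not called.

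**Figure D3:**
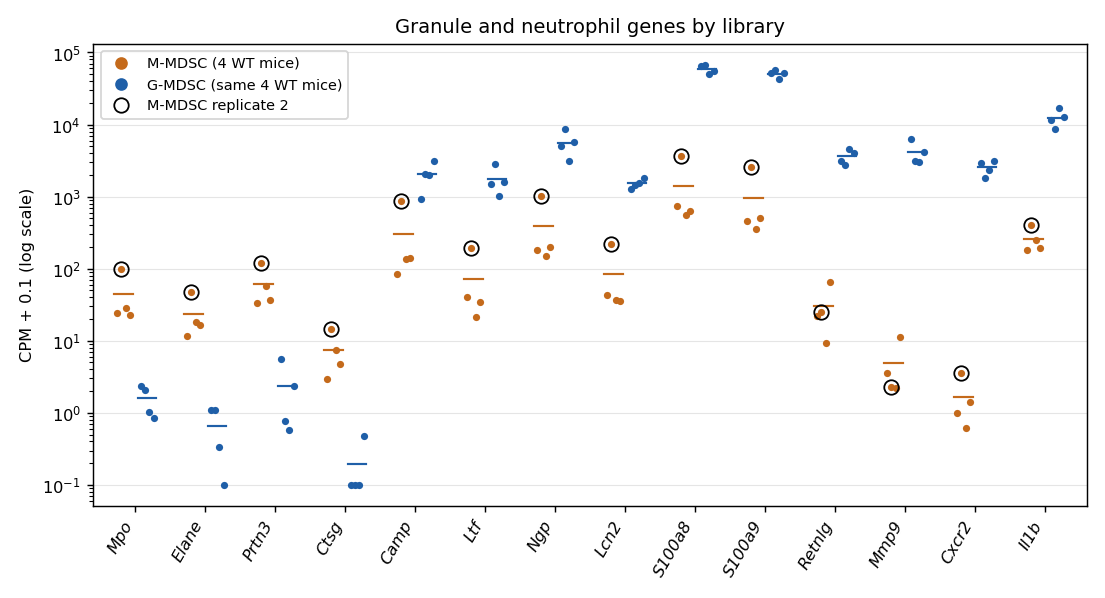
CPM plus 0.1 on a log axis for 14 granule and neutrophil genes, 1 point per library with the mean as a bar, and M-MDSC replicate 2 circled. Replicate 2 was the highest M-MDSC library for *Mpo*, *Elane*, *Prtn3*, *Camp*, *Ltf*, *Ngp*, *Lcn2*, *S100a8* and *S100a9*, but lay within the range of the other 3 for *Retnlg* and *Mmp9*.

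The S100 genes, small calcium-binding proteins that include secreted alarmins, moved in both directions. *S100a8* was read at 730.1, 3631, 550.1 and 639.5 CPM in M-MDSC and at 64698, 67088, 49957 and 56174 CPM in G-MDSC (log2 fold change 5.42 ± 0.66, FDR 2.54e-05). *S100a9*, its dimer partner, was read at 465, 2552, 354 and 503 CPM in M-MDSC and at 51538, 57104, 43248 and 51796 CPM in G-MDSC (log2 fold change 5.72 ± 0.67, FDR 1.98e-05). The G-MDSC libraries were all far above the M-MDSC libraries, of which replicate 2 was the highest, and without it the log2 fold changes were 6.47 and 6.79. *S100a4*, linked to cell motility, went the other way, from 2748, 1519, 2328 and 2558 CPM in M-MDSC to 52.5, 18.2, 12.7 and 18.2 CPM in G-MDSC (log2 fold change -6.50 ± 0.46, FDR 3.70e-07, and -7.13 without G-MDSC replicate 1). *S100a10* (annexin A2 partner, log2 fold change -3.42) was also lower, whereas *S100a11* (log2 fold change 3.31) and *S100a6* (log2 fold change 1.59) were higher. All tested members of the stefin cluster, inhibitors of cysteine proteases, were higher in G-MDSC, with at most 3 counts each over the M-MDSC libraries for *Stfa2*, *Stfa2l1*, *Stfa3* and *Gm5483*. *Cstb* and *Cst3*, more widely expressed inhibitors of the same proteases, did not pass the test, but passed as lower with the mouse as a block (log2 fold changes -0.68 and -1.04).

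Genes listed for the neutrophil surface and motility, with the enzyme gene *Irg1* among them, were uniform in direction. All 38 tested members were higher in G-MDSC, with a median log2 fold change of 4.31, beside 26.3% of all tested genes called higher. *Csf3r*, the G-CSF receptor (chr4:126024550-126044440), was read at 15.7, 30.4, 39.9 and 32.7 CPM in M-MDSC and at 549.7, 1039, 1401 and 1346 CPM in G-MDSC (log2 fold change 5.19 ± 0.37, FDR 3.72e-07). *Fpr1* and *Fpr2*, receptors for formylated peptides, rose by 6.34 and 3.75 on the log2 scale, *C5ar1*, the C5a receptor, by 5.25 and *Trem1*, an amplifier of innate signaling, by 4.42. *Irg1*, which encodes the itaconate-producing enzyme, was read at 2.52, 15.5, 3.47 and 3.999 CPM in M-MDSC and at 851, 754, 922 and 642 CPM in G-MDSC (log2 fold change 6.88 ± 0.51, FDR 5.01e-07, and 7.85 without M-MDSC replicate 2). *Hdc*, histidine decarboxylase, was read at 9.38, 16.9, 7.46 and 6.33 CPM in M-MDSC and at 3582, 2429.8, 2090.2 and 2305 CPM in G-MDSC (log2 fold change 7.98 ± 0.38, FDR 1.83e-08). With library size alone 36 members were called higher.

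Of 40 tested monocyte genes, 35 were lower in G-MDSC and 3 higher, with a median log2 fold change of -3.16, beside 27.1% of all tested genes called lower. *Ccr2*, the receptor for CCL2 (chr9:124101950-124113557), was read at 991, 853, 1165 and 1520.4 CPM in M-MDSC and at 12.1, 9.59, 3.28 and 8.35 CPM in G-MDSC (log2 fold change -7.11 ± 0.37, FDR 4.07e-08). *Cx3cr1*, the fractalkine receptor, was read at 1110.0, 516, 587 and 765 CPM in M-MDSC and at 14.4, 3.31, 3.05 and 4.56 CPM in G-MDSC (log2 fold change -6.90 ± 0.49, FDR 3.34e-07). For both receptors every M-MDSC library was far above every G-MDSC library, and without G-MDSC replicate 1 the value of *Cx3cr1* was -7.68. *Csf1r*, the M-CSF receptor, fell from 1827, 1019.9, 1381 and 1072 CPM to 677, 332, 524 and 397 CPM (log2 fold change -1.46 ± 0.26, FDR 4.76e-04). *Ms4a6c*, a tetraspan membrane protein (log2 fold change -6.99), *Fcgr1* (the high-affinity IgG receptor, log2 fold change -5.13), *Ctss* (cathepsin S, log2 fold change -3.28) and *Lyz2* (lysozyme, log2 fold change -2.31) fell as well. The 3 members higher in G-MDSC were *Ccr1* (log2 fold change 4.65), a receptor for CCL3 and CCL5 also found on neutrophils, *Adgre5*, the adhesion receptor CD97 (log2 fold change 1.10), and *Emb*, the membrane glycoprotein embigin (log2 fold change 0.77), and the calls of the last pair were lost with library size alone. Among genes of non-classical monocytes, *Ace* (angiotensin-converting enzyme, log2 fold change -7.00) and *Apoe* (apolipoprotein E, log2 fold change -1.41) were lower. *Cd300ld*, an activating receptor (log2 fold change 3.73), and *Itgal*, the LFA-1 chain (log2 fold change 1.00, not called with library size alone), were higher. That list had 4 members higher and 7 lower of 14, beside 26.3% of all tested genes higher and 27.1% lower. Without G-MDSC replicate 1 the value of *Ace* was -9.14.

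Chemokine receptors were called in both directions, with 7 of 13 tested members higher in G-MDSC and 3 lower. These counts stand beside 26.3% of all tested genes higher and 27.1% lower. With library size alone 5 members were higher and 3 lower. Beside *Cxcr2* and *Ccr1*, *Cxcr1* had 1 count in M-MDSC and 492 in G-MDSC, and *Cxcr4*, which retains neutrophils in the marrow, was read at 95.7, 217, 176 and 189 CPM in M-MDSC and at 724, 664, 1068 and 1247 CPM in G-MDSC (log2 fold change 2.45 ± 0.28, FDR 1.72e-05). Among chemokines, 4 of 13 were higher and 3 lower, and 3 and 5 with library size alone, beside 26.3% of all tested genes higher and 27.1% lower with TMM. *Cxcl2*, a CXCR2 ligand, was read at 83.3, 439, 176 and 249.9 CPM in M-MDSC and at 1061, 1204, 3183 and 2574 CPM in G-MDSC (log2 fold change 3.08 ± 0.50, FDR 2.40e-04). *Ccl6* rose (log2 fold change 2.03), whereas its neighbor *Ccl9* fell from 454, 177, 257 and 284 CPM to 15.01, 6.94, 11.02 and 9.87 CPM (log2 fold change -4.77 ± 0.33, FDR 2.72e-07), and the CCR2 ligand *Ccl2* fell at a low level (log2 fold change -3.30 ± 0.60, FDR 5.40e-04, and -3.98 without G-MDSC replicate 4). Of the growth factor receptors, *Csf2rb*, the common chain for GM-CSF, IL-3 and IL-5, was called higher (log2 fold change 1.17), but its ranges overlapped, its reads may be shared with a near-identical neighbor, and it was not called with library size alone. *Flt3*, a receptor of progenitors and dendritic cells (log2 fold change -4.90), and *Il3ra*, the IL-3 receptor chain (log2 fold change -3.26, and -4.46 without G-MDSC replicate 1), were lower.

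Most transcription factors listed for granulocytes were higher in G-MDSC. Of 26 factors listed for granulocytes, 20 were higher in G-MDSC and 2 were lower (median 1.44), beside 26.3% and 27.1% of all tested genes. With library size alone 13 were called higher and 5 lower. *Cebpe*, the C/EBP factor needed for secondary granules, was read at 5.41, 5.62, 3.12 and 3.67 CPM in M-MDSC and at 39.8, 80.7, 15.002 and 29.6 CPM in G-MDSC (log2 fold change 3.17 ± 0.46, FDR 1.06e-04). The 4 G-MDSC libraries spread widely but all lay above M-MDSC. *Cebpd* (log2 fold change 2.96) and *Cebpb* (log2 fold change 1.38) were also higher. *Cebpa*, which acts earlier in the granulocyte lineage, was lower, at 83.7, 43.2, 54.3 and 83.98 CPM in M-MDSC and 19.2, 4.63, 15.7 and 11.4 CPM in G-MDSC (log2 fold change -2.36 ± 0.36, FDR 1.53e-04). *Mxd1*, a MAX partner of terminal differentiation, was read at 48.7, 88.5, 51.2 and 53.3 CPM in M-MDSC and at 3202, 2339.6, 2147 and 3525 CPM in G-MDSC (log2 fold change 5.53 ± 0.29, FDR 4.25e-08), and *Spi1*, which encodes PU.1, was higher in G-MDSC (log2 fold change 1.79). *Gfi1*, a repressor in granulocyte precursors, was called higher at a few CPM with overlapping ranges (log2 fold change 1.69 ± 0.58, FDR 0.0264), and its call was lost when any of 5 of the 8 libraries was left out. Without M-MDSC replicate 2 its log2 fold change was 2.75.

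Among 33 factors listed for monocytes and macrophages, 14 were lower in G-MDSC and 9 higher (median -0.40), beside 27.1% of all tested genes lower and 26.3% higher. With library size alone 19 were lower and 3 higher (median -1.16), beside 5061 lower and 1166 higher of the 9739 tested genes. *Irf8*, which directs progenitors to the monocyte fate, was read at 666, 423, 335 and 459 CPM in M-MDSC and at 108, 92.2, 73.4 and 82.8 CPM in G-MDSC (log2 fold change -2.40 ± 0.22, FDR 2.99e-06). *Klf4*, a factor of monocyte differentiation, was read at 671, 526, 414 and 621 CPM in M-MDSC and at 52.2, 57.5, 19.5 and 48.2 CPM in G-MDSC (log2 fold change -3.66 ± 0.31, FDR 1.43e-06). Neither gene overlapped between subsets. *Zeb2*, a zinc finger repressor (log2 fold change -2.21), and *Irf5*, a factor of inflammatory macrophages (log2 fold change -2.10), were lower too. The immediate early gene *Egr1* (log2 fold change 2.89, and 3.52 without M-MDSC replicate 2) and *Irf1*, a mediator of interferon signals (log2 fold change 1.43), were higher in G-MDSC.

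The NLRP3 and IL-1 axis, the subject of the study, differed between the subsets without any change of genotype. *Nlrp3*, the sensor (chr11:59541568-59566956), was read at 39.5, 86.7, 51.7 and 77.7 CPM in M-MDSC and at 282, 246, 320.0 and 306 CPM in G-MDSC (log2 fold change 2.18 ± 0.24, FDR 1.06e-05). *Il1b* (chr2:129364570-129371139), the main cytokine released after inflammasome activation, was read at 180.3, 410.0, 249.7 and 196 CPM in M-MDSC and at 11484, 8636, 16938 and 12647 CPM in G-MDSC (log2 fold change 5.58 ± 0.37, FDR 1.91e-07). Every G-MDSC library was above every M-MDSC library for both genes. The adaptor and the protease went the other way. *Pycard*, which encodes the adaptor ASC, was read at 127, 66.8, 81.2 and 94.3 CPM in M-MDSC and at 20.2, 25.5, 13.4 and 16.3 CPM in G-MDSC (log2 fold change -2.29 ± 0.25, FDR 1.16e-05). *Casp1*, which encodes caspase-1, was read at 81.7, 67.1, 71.3 and 68.3 CPM in M-MDSC and at 43.4, 40.7, 55.8 and 39.1 CPM in G-MDSC (log2 fold change -0.68 ± 0.17, FDR 0.00404), a call that was lost after correction for GC content and transcript length (-0.58). In the whole inflammasome list 6 of 22 tested members were higher in G-MDSC and 11 lower, beside 26.3% of all tested genes higher and 27.1% lower. *P2rx7*, the ATP receptor that triggers NLRP3 (log2 fold change -3.70), *Nlrc4*, the sensor of flagellin (log2 fold change -2.64), and the cytokine *Il18* (log2 fold change -0.97) were lower, and *Dfna5*, which encodes gasdermin E (log2 fold change 4.20), and *Ninj1*, which mediates membrane rupture (log2 fold change 1.64), were higher. *Gsdmd*, the gasdermin cleaved by caspase-1, was below the fold minimum (log2 fold change 0.42 ± 0.17, FDR 0.0496).

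Receptors and antagonists of the IL-1 family were mostly on the G-MDSC side, with 11 of 14 higher and 0 lower (median 2.08). The shares of all tested genes were 26.3% higher and 27.1% lower. Library size alone left 7 members higher and 2 lower. With upper-quartile scaling 2 were lower, and without G-MDSC replicate 3 the median was 2.75. *Il1rn*, the receptor antagonist, was read at 10.5, 8.92, 9.72 and 11.7 CPM in M-MDSC and at 351, 302, 291 and 278 CPM in G-MDSC (log2 fold change 4.91 ± 0.18, FDR 7.82e-09). *Il1r2*, the decoy receptor, was read at 60.8, 168, 86.6 and 45.99 CPM in M-MDSC and at 2042, 2097, 2082 and 1912 CPM in G-MDSC (log2 fold change 4.48 ± 0.37, FDR 1.18e-06). *Il18rap*, the accessory chain of the IL-18 receptor, rose from 9.38, 10.1, 11.3 and 11.998 CPM to 267, 291, 319 and 238 CPM (log2 fold change 4.71 ± 0.18, FDR 7.82e-09). The tight replicates of *Il1rn* and *Il18rap* left no overlap.

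Of 25 tested genes linked to suppression by MDSCs, 16 were higher in G-MDSC and 4 lower (median 1.35), and 12 and 6 with library size alone. The shares of all tested genes were 26.3% higher and 27.1% lower with TMM. The pair most often used to define MDSC function in the mouse was close to absent. *Arg1* (arginase 1) had 1 count in 3 of the M-MDSC libraries and none elsewhere, and *Nos2* (inducible nitric oxide synthase) had no count in any of the 8 libraries, which at this depth allows up to 0.9998 CPM in an M-MDSC library and 1.14 CPM in a G-MDSC library. *Arg2*, the mitochondrial arginase, was read at 2.34, 6.58, 3.99 and 5.67 CPM in M-MDSC and at 210.1, 198, 334 and 334 CPM in G-MDSC (log2 fold change 5.85 ± 0.33, FDR 5.87e-08). *Entpd1*, the ectonucleotidase CD39, was read at 19.1, 17.3, 15.8 and 15.997 CPM in M-MDSC and at 238, 232, 353 and 269 CPM in G-MDSC (log2 fold change 4.00 ± 0.19, FDR 1.91e-08). *Nt5e*, CD73, which completes the path from ATP to adenosine, also rose at a low level (log2 fold change 3.17 ± 0.59, FDR 6.23e-04, and 3.88 without M-MDSC replicate 3). *Slc7a11*, the cystine transporter (log2 fold change 4.22), *Ptgs2*, cyclooxygenase-2 (log2 fold change 2.99), and *Cd84*, a receptor of the SLAM family (log2 fold change 2.61), rose as well. *Havcr2*, which encodes TIM-3 (log2 fold change -4.05), *Fcgr2b*, the inhibitory Fc receptor (log2 fold change -2.29), and *Tgfb1*, TGF-β1 (log2 fold change -2.04), were higher in M-MDSC. *Olr1*, the lectin receptor LOX-1 used as a marker of human granulocytic MDSCs, was read at 2.88, 9.05, 9.20 and 2.999 CPM in M-MDSC and at 6.85, 14.2, 14.5 and 9.49 CPM in G-MDSC. The ranges overlapped and it did not pass (log2 fold change 0.87 ± 0.43, FDR 0.102), but passed with the mouse as a block (FDR 0.0157).

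The phagocyte NADPH oxidase, which makes superoxide, was divided. *Cybb*, the catalytic gp91phox, was read at 2135, 1743, 1936 and 2045 CPM in M-MDSC and at 624, 1058, 404 and 591 CPM in G-MDSC (log2 fold change -1.55 ± 0.26, FDR 3.16e-04). *Ncf1*, the organizer p47phox, was read at 711, 254, 229 and 294 CPM in M-MDSC and at 3435, 1389, 1015 and 1556 CPM in G-MDSC (log2 fold change 2.31 ± 0.44, FDR 7.56e-04). The ranges of neither gene overlapped, and the mouse of replicate 1 gave the highest *Ncf1* library of both subsets. The cytosolic *Ncf4* (log2 fold change 1.21) and the GTPase *Rac2* (log2 fold change 2.14) were higher, and with library size alone *Ncf4* was not called. *Cyba*, the partner of *Cybb* in the membrane, did not pass (log2 fold change 0.30 ± 0.19, FDR 0.202). 

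Antigen presentation genes were called in both directions. Of 16 tested class II genes, 4 were higher and 7 lower in G-MDSC, beside 26.3% of all tested genes higher and 27.1% lower. With library size alone 2 were higher and 11 lower, beside 1166 higher and 5061 lower of the 9739 tested genes. The class II chain *H2-Aa* was read at 296, 399, 290.0 and 288 CPM in M-MDSC and at 287, 117, 289 and 314 CPM in G-MDSC and did not pass (log2 fold change -0.34 ± 0.26, FDR 0.293), nor did the invariant chain *Cd74* (log2 fold change -0.42 ± 0.19, FDR 0.0778). The peptide-loading and processing genes *H2-DMa* (log2 fold change -1.96), *H2-DMb1* (log2 fold change -1.75), *Ifi30* (log2 fold change -4.04) and *Lgmn* (log2 fold change -2.59) were lower in G-MDSC. The costimulatory pair was split, with *Cd86* lower (log2 fold change -1.74) and *Cd80* higher, from 5.05, 6.17, 6.25 and 4.67 CPM to 62.6, 60.5, 75.2 and 61.1 CPM (log2 fold change 3.53 ± 0.19, FDR 5.21e-08). B cells express class II genes at high levels and their markers were also present, as given below, and their part in the class II levels was not tested. For class I, the light chain *B2m* did not pass (log2 fold change 0.11 ± 0.23, FDR 0.701) and the immunoproteasome subunit *Psmb10* was lower (log2 fold change -2.23). Pattern and Fc receptors were likewise divided. The endotoxin receptor *Tlr4* (log2 fold change 2.27), the lipopeptide receptor *Tlr6* (log2 fold change 2.60) and the activating IgG receptor *Fcgr4* (log2 fold change 2.62) were higher in G-MDSC. The single-stranded RNA receptor *Tlr7* (log2 fold change -2.30) and the neonatal Fc receptor *Fcgrt* (log2 fold change -2.49) were lower, while the endotoxin co-receptor *Cd14* did not pass (log2 fold change -0.01 ± 0.42, FDR 0.992).

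Interferon-stimulated genes differed in both directions, with 25 of 47 higher in G-MDSC and 14 lower, and 20 and 18 with library size alone. The shares of all tested genes were 26.3% higher and 27.1% lower with TMM. *Ifitm1*, a membrane restriction factor, was read at 20.4, 15.4, 23.6 and 13.3 CPM in M-MDSC and at 1772, 1230.0, 2201 and 1331 CPM in G-MDSC (log2 fold change 6.48 ± 0.29, FDR 1.74e-08), whereas its neighbor *Ifitm3* was lower in G-MDSC (log2 fold change -1.09 ± 0.25, FDR 0.00255). *Rsad2* (viperin, log2 fold change 3.57), *Slfn4*, a schlafen of myeloid cells (log2 fold change 5.35), *Oasl1*, an OAS-like protein (log2 fold change 2.84), and *Isg15*, the ubiquitin-like modifier (log2 fold change 1.71), were higher. *Mx1*, the dynamin-like GTPase, was read at 46.2, 27.4, 37.8 and 36.7 CPM in M-MDSC and at 1.30, 0, 1.64 and 2.28 CPM in G-MDSC (log2 fold change -4.79 ± 0.44, FDR 2.52e-06). Its relative *Mx2* (log2 fold change -3.48) and *Bst2* (tetherin, log2 fold change -2.53) were lower as well. *Ifi205*, one of a cluster of near-identical genes whose reads may be shared, was also lower (log2 fold change -5.56, and -6.29 without G-MDSC replicate 1).

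Among genes of protein synthesis, folding and degradation more members were lower in G-MDSC than higher, beside 27.1% of all tested genes lower, and many did not pass. Of 81 cytosolic ribosomal protein genes, 69 were lower and 1 higher (median -1.07). The higher one was *Rpl3l*, a muscle-type paralog of the gene for L3, at 6.13, 4.80, 2.78 and 3.33 CPM in M-MDSC and 56.8, 29.1, 35.9 and 27.3 CPM in G-MDSC (log2 fold change 3.10 ± 0.32, FDR 7.51e-06). The largest fall was that of *Rpl36al* (log2 fold change -2.35 ± 0.37, FDR 2.02e-04). Ribosomal protein genes have many processed copies in the genome, and their reads may be shared with these. 45 of 74 mitochondrial ribosomal protein genes (median -1.07), 22 of 36 complex I genes (median -0.87) and 17 of 39 genes of complexes II to V (median -0.52) were lower. In complex I, the subunit gene *Ndufc2* was read at 79.2, 75.7, 79.6 and 80.7 CPM in M-MDSC and at 19.2, 19.5, 18.5 and 15.2 CPM in G-MDSC (log2 fold change -2.12 ± 0.16, FDR 5.35e-07). 17 of 23 genes of translocation and folding in the endoplasmic reticulum were lower, among them *Hsp90b1* (the chaperone GRP94, log2 fold change -1.56) and *Sdf2l1*, a BiP-associated protein (log2 fold change -3.08). 19 of 37 proteasome genes and 23 of 49 initiation factor genes were lower, the latter with 6 higher. Among the initiation factors the largest rise was that of *Eif1*, which selects the start codon (log2 fold change 1.30 ± 0.15, FDR 1.96e-05, not called with library size alone), and the largest fall that of *Eif3i*, a subunit of eIF3 (log2 fold change -1.96 ± 0.15, FDR 5.46e-07). No member of the complex I, complex II to V, endoplasmic reticulum or proteasome lists was called higher. Library size alone and upper-quartile scaling lower all genes, to medians of -0.79 and -0.27, so list medians are to be read against these. With library size alone those of this paragraph ran from -1.82 for the cytosolic ribosome to -1.27 for complexes II to V. With upper-quartile scaling they ran from -1.29 to -0.74 for the same lists. With per-library correction for GC content and transcript length the median of the cytosolic ribosome was -0.94 (60 lower), and that of complex I -0.71 (19 lower).

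Of 42 lysosomal genes, 21 were lower and 8 higher, beside 27.1% of all tested genes lower and 26.3% higher. The cysteine cathepsins *Ctss*, *Ctsb* (log2 fold change -1.89), *Ctsh* (log2 fold change -1.63) and *Ctsz* (log2 fold change -1.54) were lower. The aspartic cathepsin *Ctsd* was higher, at 324, 159, 181 and 198 CPM in M-MDSC and 2424, 985, 1029 and 1651 CPM in G-MDSC (log2 fold change 2.82 ± 0.33, FDR 1.91e-05).

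**Figure D4:**
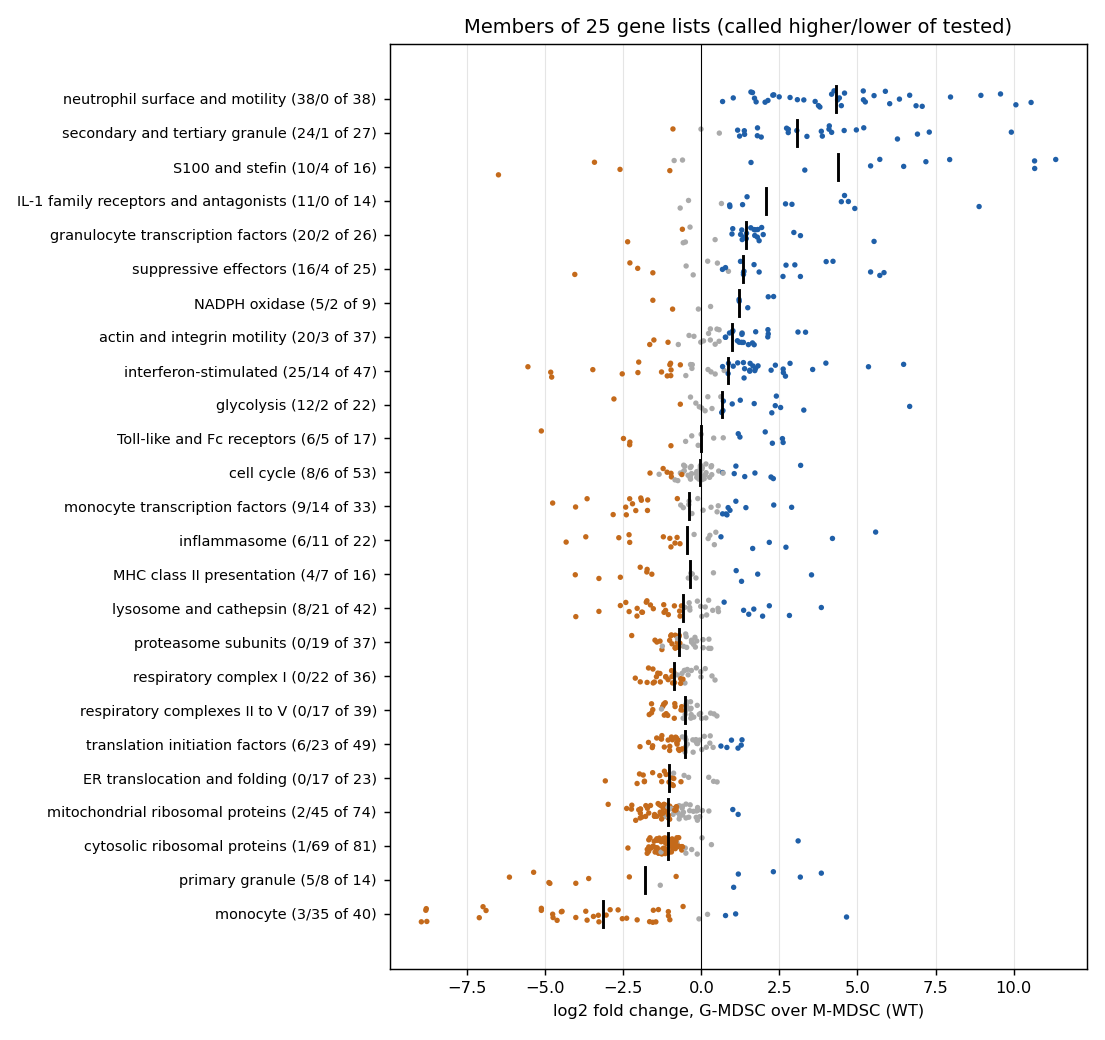
Log2 fold change of G-MDSC over M-MDSC for each tested member of 25 gene lists, 1 point per gene, blue for called higher, orange for called lower and gray for not passing, with the list's median as a black bar. The counts in brackets are members called higher and lower of those tested, from 38 and 0 of 38 for the neutrophil surface to 3 and 35 of 40 for monocytes.

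Of 22 tested genes of glycolysis and its transporters, 12 were higher in G-MDSC and 2 lower (median 0.67), beside 26.3% and 27.1% of all tested genes. With library size alone the median was -0.07, with 7 higher and 5 lower. *Slc2a3*, the glucose transporter GLUT3, was read at 3.61, 6.17, 2.60 and 4.67 CPM in M-MDSC and at 515, 359, 419 and 467 CPM in G-MDSC (log2 fold change 6.67 ± 0.27, FDR 1.53e-08). *Pygl*, which releases glucose from glycogen, was read at 381, 274, 282 and 326 CPM in M-MDSC and at 2054, 1944, 1657 and 1676 CPM in G-MDSC (log2 fold change 2.54 ± 0.18, FDR 3.83e-07). *Slc16a3*, the lactate exporter MCT4 (log2 fold change 3.28), and *Hk3*, a myeloid hexokinase (log2 fold change 2.40), rose, whereas the lactate dehydrogenase chain *Ldhb* fell (log2 fold change -2.80, and -3.57 without G-MDSC replicate 2). In the pentose phosphate pathway *Taldo1* (transaldolase) was read at 618, 527, 546 and 594 CPM in M-MDSC and at 2605, 2170.3, 2532 and 2105 CPM in G-MDSC (log2 fold change 2.04 ± 0.17, FDR 1.21e-06), and *Pgd*, the phosphogluconate dehydrogenase, rose by 1.65, both more than the shift between scalings.

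Of 37 genes of the actin and integrin machinery, 20 were higher and 3 lower in G-MDSC (median 1.00), beside 26.3% and 27.1% of all tested genes. With library size alone 10 were higher and 8 lower. *Vasp*, an actin polymerase cofactor, was read at 151, 114, 102 and 149 CPM in M-MDSC and at 1637, 856, 788 and 1123 CPM in G-MDSC (log2 fold change 3.09 ± 0.26, FDR 1.34e-06), and *Lcp1* (L-plastin) rose by 2.13. The integrin chains differed, with *Itgax* (log2 fold change 3.34), the CD11c chain, higher and *Itgb1* (log2 fold change -1.65), *Itgb7* (log2 fold change -1.52) and *Itgav* (log2 fold change -1.07) lower. Of 53 cell cycle genes, 8 were higher and 6 lower, beside 53.3% of all tested genes called, and with library size alone 5 were higher and 19 lower. *Kif23*, a kinesin of cytokinesis, was the largest rise (log2 fold change 3.18 ± 0.28, FDR 2.17e-06). Without M-MDSC replicate 2 the counts with TMM were 12 higher and 5 lower.

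Markers of other cells were summed per library. The 11 B cell genes summed to 188 to 225 CPM in M-MDSC and 424 to 627 CPM in G-MDSC, and 9 of 10 tested were called higher, 3 with library size alone. Red pulp macrophage genes summed to 104 to 116 CPM and 430.5 to 765 CPM. Most of the latter was *Slc40a1*, the iron exporter ferroportin, at 5.59, 7.41, 7.46 and 2.999 CPM in M-MDSC and 489.7, 292, 481 and 479 CPM in G-MDSC (log2 fold change 6.15 ± 0.29, FDR 1.87e-08), whereas the defining *Spic* and *Cd163* did not pass and the C1q chains *C1qa* (log2 fold change 2.00), *C1qb* (log2 fold change 1.40) and *C1qc* (log2 fold change 1.35) rose at low levels. Without G-MDSC replicate 1 the log2 fold change of *C1qa* was 1.37, and with library size alone *C1qb* and *C1qc* were not called. The basophil and mast cell list was *Hdc* almost alone, with the other members summing to a few CPM. The exact two-sided permutation test of these 3 sums gave p = 0.0286, the smallest that 4 against 4 libraries can give. It exchanged all 8 libraries freely and did not use the pairing of the subsets by mouse. Eosinophil and stromal sums gave the same p in this test with TMM, but 0.314 and 0.886 with library size alone. Adjusted over 11 lists, p was 0.0629 for all of these sums with TMM, and none passed. No list could pass this adjustment by itself, however far apart its libraries lay, so the adjusted test cannot decide whether these sums differ. T and NK cell markers summed to 152 to 222 CPM and 221 to 332 CPM, and dendritic cell markers to 448 to 552 CPM and 437 to 526 CPM. Although the dendritic cell sums overlapped, 1 of 9 tested members was higher in G-MDSC and 5 were lower (median -1.04). All tested genes were 26.3% higher and 27.1% lower. Of 7 tested erythroid genes 1 was called higher, but 7 with the mouse as a block and 7 without M-MDSC replicate 2, and the sums were 35.1 to 256 CPM and 67.7 to 580.3 CPM, with the 4 listed haemoglobin symbols at 0 in all libraries. For T and NK cell genes the block raised the calls from 3 to 6 of 15, all higher. The 9 melanoma genes summed to 24.5 to 40.03 CPM in M-MDSC and 36.8 to 40.999 CPM in G-MDSC, and 4 of them, among which *Mlana*, *Tyr* and *Tyrp1*, had no count in these libraries. Of 2 tested, *Gpnmb*, which macrophages also express, had 65 counts in M-MDSC and 6 in G-MDSC, all of the latter in replicate 2, and was called lower, and *Mitf* was below the fold minimum (log2 fold change 0.54 ± 0.20, FDR 0.0377). Whether the lymphoid and macrophage transcripts came from other cells in the sorted samples was not tested.

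The same comparison in *Nlrp3*-/- mice shared no library with that in WT. There 2383 of 10071 genes (23.7%) were higher in G-MDSC and 2758 (27.4%) lower. 4152 genes were called in both genotypes in the same direction, which is 79.95% of the WT calls and 80.8% of the *Nlrp3*-/- calls, and 1 gene was called in opposite directions, *Inpp5j*, an inositol phosphatase, named after its values were seen. It stood at a few CPM (1.22 in WT and -1.39 in *Nlrp3*-/- mice), and its WT call was lost when any of 7 of the 8 libraries was left out. The test of the difference between genotypes called 3 of 10696 genes (0.028%), with 480 at an unadjusted p under 0.05, and DESeq2 called 8. The genes called with edgeR were *Gdpd3*, a lysophospholipase D (log2 fold change 0.43 in WT and 2.25 in *Nlrp3*-/- mice), *Adgrg5*, an adhesion receptor (-1.02 and -4.84), and *Pisd-ps1*, a pseudogene that may take reads of its parent (2.43 and 4.41). None of the 954 genes called in WT alone passed that test. In *Nlrp3*-/- mice the medians were 4.18 for the neutrophil surface (37 higher of 38), 3.61 for secondary and tertiary granules and -3.12 for monocyte genes, beside 4.31, 3.06 and -3.16 in WT. For *Nlrp3* itself the log2 fold change was 3.16 in *Nlrp3*-/- mice, where it was not tested whether reads near the 3′ end check the genotype, and for *Il1b* it was 6.72, and neither difference from WT passed (FDR 0.992 and 0.844).

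**Figure D5:**
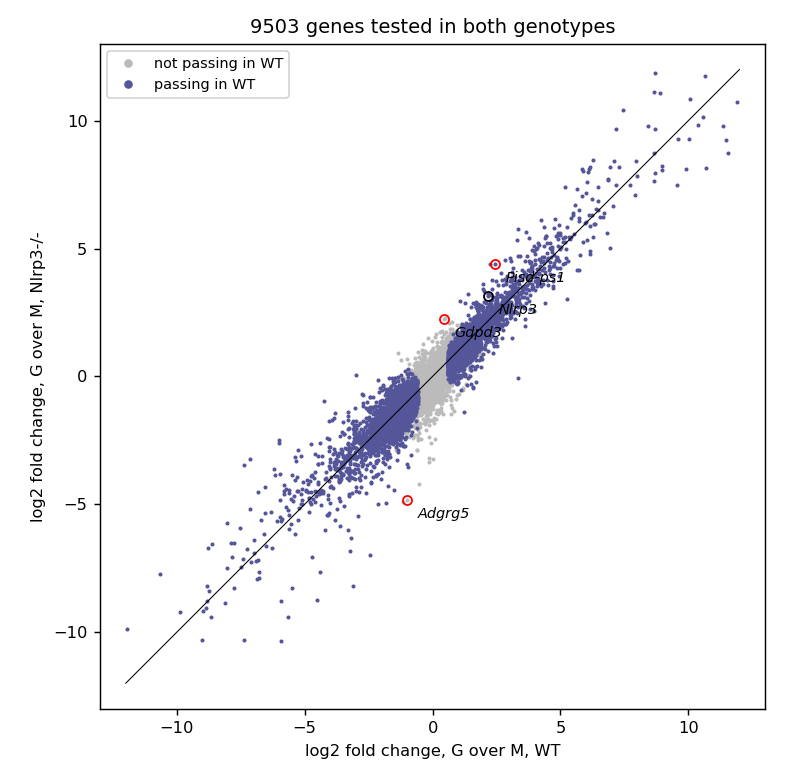
Log2 fold change of G-MDSC over M-MDSC in *Nlrp3*-/- mice (vertical axis) against WT mice (horizontal axis), 1 point per gene tested in both, violet where the gene passed in WT and gray where it did not, with the line of equality. Most genes lie near the line, and the 3 genes called for a difference are circled in red, with *Nlrp3* in black.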

How the data were processed

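RNA was sequenced from M-MDSC and G-MDSC sorted from the spleens of the same mice after lysis of erythrocytes. QuantSeq 3′ mRNA-Seq FWD libraries were amplified with one of 2 cycle numbers (which library had which is not given in the sources used here) and read single-end on a NextSeq 500. The authors aligned reads with HISAT2 2.1.0 to mm10, counted them per gene symbol with htseq-count in stranded mode, and deposited raw counts, 1 column per library, with no normalization. Their own comparison used edgeR 3.14.0.

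From these counts, genes were filtered with filterByExpr, scaled by TMM and tested with edgeR's quasi-likelihood test (edgeR 4.0.16, limma 3.58.1, R 4.3.3) on the 8 WT libraries. DEGs passed an FDR (Benjamini-Hochberg) of 0.05 and differed more than 1.5-fold, the thresholds of the study. Every FDR in the report is from this test unless another tool is named. Levels are TMM-scaled CPM. The same test was run on the 8 *Nlrp3*-/- libraries, and the interaction of subset and genotype on all 16. DESeq2 1.42.0 was an alternative, with other scalings, other filters on low counts, the mouse as a block, offsets for GC content and length (known for 96.4% of the tested genes), and each library left out in turn. Library totals ran from 2295967 to 5933395 counts, and intervals and floors cover counting error only. The p-values of the fits rest on the spread between the libraries of a subset, each from a different mouse. Except where the mouse is a block, the test held no term for the mouse and did not use the pairing.

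Subset and replicate were taken from the sample titles and the mouse from the sample descriptions, which give the libraries of a replicate number within a genotype the same mouse. The pairing rests on these labels. Deviations from the subset mean correlated within mice at 0.479, 0.107, 0.409 and 0.185 in WT, and between mice at -0.356 to 0.147, so that replicate 2 correlated no better with itself than some different mice did. No libraries of a subset agreed within sampling noise.

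The comparison and the gene lists were chosen with earlier results of these data known. Of 1548 list entries, 1540 matched a gene symbol in the files, 8 of them under another symbol, and 1240 were tested. Named genes were the sort antigens, *Nlrp3*, *Il1b*, *Arg1*, *Nos2*, *Olr1* and *Cebpe*, the 12 largest changes in each direction among DEGs with a mean of at least 20 CPM and no overlap, the 10 most abundant genes of each subset, members of lists of up to 50 genes, the extremes of longer lists, and genes called for the interaction, some of which are not reported here. Gene positions came from the GENCODE annotation of GRCm38 and promoter sequences from a RefSeq table (GRCm38.p6). No protein sequence was used here.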

Additional observations from a re-analysis of the deposited data

Results flagged for a closer look

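Dixon's test at the 95% level was run on 106 groups of 4 libraries of a subset. The groups held summed levels of gene lists and the single genes *Itgam*, *Ly6c2*, *Nlrp3*, *Il1b* and *Cebpe*. In 6 groups, all of them list sums, 1 library stood apart, which chance alone gives in about 1 of 20 groups. Some lists share genes, so the groups are not independent. M-MDSC replicate 2 was the high library in 3 of the 6 groups. Its suppressive effectors, a list that includes *S100a8* and *S100a9*, summed to 9903 CPM against 5026 to 5755 in the other M-MDSC libraries, its cell cycle genes to 3217 CPM against 1712 to 1964, and its progenitor markers to 69.4 CPM against 31.9 to 37.1. This is the library with the most *Mpo*, *Elane*, *Camp* and *S100a8* among M-MDSC. The mouse of replicate 1 was high in the others. The NADPH oxidase genes summed to 8528 CPM in its G-MDSC library against 5543 to 5647. Its glycolysis genes summed to 7097 CPM in G-MDSC against 5642 to 5759 and to 2423 CPM in M-MDSC against 1904 to 1975.

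The subset difference itself differed between genotypes for 3 genes. On the log2 scale, the fold change in *Nlrp3*-/- minus that in WT was 1.94 ± 0.24 (SE, FDR 9.33e-04, edgeR) for *Gdpd3*, -3.71 ± 0.57 (FDR 0.0103) for *Adgrg5* and 2.09 ± 0.32 (FDR 0.0103) for *Pisd-ps1*. *Gdpd3* stood at 45.1, 37.7, 44.4 and 51.7 CPM in WT M-MDSC and 77.1, 48.4, 52.6 and 61.9 CPM in WT G-MDSC, and at 348, 317, 371 and 346 CPM and 1934, 1781, 1447 and 1979 CPM in *Nlrp3*-/- mice, scaled over all 16 libraries. *Adgrg5* stood at 3.53, 5.91, 5.35 and 4.45 CPM and 2.67, 1.01, 3.63 and 1.95 CPM in WT and at 88.2, 90.9, 63.1 and 80.5 CPM in M-MDSC and no more than 4.85 CPM in G-MDSC of *Nlrp3*-/- mice. For both genes the M-MDSC libraries of the genotypes did not overlap either. The call of *Adgrg5* was lost without WT G-MDSC replicate 3, where 2 genes were called with a positive and 0 with a negative difference. Without *Nlrp3*-/- M-MDSC replicate 1, 1 gene was called in each direction.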

How the results depend on the processing

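The number of WT DEGs, 5193 in the report, stayed within 1.5 times under every alternative run, from 3900 with at least 10 counts in every library to 6227 with library size alone. With the mouse as a replicate block it was 5447, of which 5124 were shared, with DESeq2 5269, and between 4838 and 5272 when 1 library was left out. Offsets for GC content and length gave 5175, and 5399 together with the block. These offsets, library size without *Rn45s*, *S100a8* and *S100a9* (5863), and DESeq2 for the interaction were added after the data had been seen. The balance of directions did depend on scaling, since 49.2% of the calls were higher in G-MDSC with TMM, 38.2% with upper-quartile scaling and 18.7% with library size alone. In *Nlrp3*-/- mice the 5141 calls were 5397 with the replicate block and 4810 to 5106 with 1 library left out. The 3 genes called for the interaction became 8 with DESeq2, 4 with the replicate block and 2 to 5 with 1 library left out, the highest without *Nlrp3*-/- G-MDSC replicate 3. The cause of these changes was not tested.

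Of the genes named in the text, 6 that did not pass changed sign with library size alone, namely *B2m* (log2 fold change -0.64, then called lower), *Cyba* (-0.46), *Gdpd3* (-0.32), *Gsdmd* (-0.33), *Mitf* (-0.20) and *Nfkbia* (-0.11). The block changed the calls of 6 named genes, all of which then passed, and beyond those given in the report these were *Nfkbia* (0.71) and *Tmsb4x* (0.80). It changed no other call of a named gene. In the lists it raised the BCL2 family from 1 to 4 lower and the progenitor markers from 0 to 2 higher.

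Reads lie near the 3′ end, so isoforms and genes with near-identical ends cannot be resolved. Genes with few counts in a subset carry ratios set by 1 or 2 libraries. The sorted cells were not compared with cells of tumor-free mice, and the amplification cycles of each library were not used as a covariate.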

Other observations

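Several gene groups not described above also held genes that differed between the subsets. Of 16 tested genes of leukotriene and prostaglandin synthesis and reception, 8 were higher in G-MDSC and 3 lower, beside 26.3% and 27.1% of all tested genes. With library size alone the counts were 4 and 6. *Alox5ap*, which presents arachidonate to 5-lipoxygenase, was read at 787, 766, 894 and 852 CPM in M-MDSC and at 1592, 1485, 1739 and 1650.2 CPM in G-MDSC (log2 fold change 0.97 ± 0.16, FDR 2.25e-04, and 0.22 and not called with library size alone). *Alox5*, 5-lipoxygenase itself, was read at 6.31, 5.49, 6.77 and 7.998 CPM in M-MDSC and at 197, 144, 194 and 249 CPM in G-MDSC (log2 fold change 4.90 ± 0.22, FDR 1.74e-08). Of 18 BCL2 family genes, 6 were higher and 1 lower, beside 26.3% and 27.1% of all tested genes, but 1 and 8 with library size alone. *Mcl1*, on which neutrophil survival depends, was read at 621, 815, 839 and 784 CPM in M-MDSC and at 2519, 2401, 3031 and 2695 CPM in G-MDSC (log2 fold change 1.80 ± 0.18, FDR 5.42e-06). The 194 tested genes named Zfp, a broad set of zinc finger genes, had 44 members higher and 45 lower, beside 26.3% of all tested genes higher and 27.1% lower. With library size alone 15 were higher and 91 lower, beside 1166 higher and 5061 lower of the 9739 tested genes under that scaling.

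One gene separated the mice within each subset. *Psap*, which encodes the precursor of the saposins, was read at 1007, 1339.9, 3338 and 3413 CPM in M-MDSC replicates 1 to 4 and at 161, 33.4, 1057 and 935 CPM in G-MDSC replicates 1 to 4. In both subsets replicates 3 and 4 were more than 2-fold above replicates 1 and 2, which held for 1 of 5231 genes with a mean of at least 20 CPM, and the reverse split for 0. This split was noticed in the data and has no label behind it.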
